A study of Mus musculus with 8 samples.

Results

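The genes described are the 4 Notch receptors of the mouse (Notch1, Notch2, Notch3 and Notch4), the ligands Jag1, Jag2, Dll1 and Dll4, and the target genes Hes1 and Hey1. They were taken by name, as gene probes whose transcript accession belongs to 1 of these 10 genes, out of 45586 genes or unnamed transcripts on the array. All 10 had a probe and 9 passed the filter on dim probes that left 20265 for testing; Dll4 did not. The RNA came from mammary tumours of bitransgenic mice, in which every group carried 2 transgenes, s-SHIP promoter-GFP as a reporter and C3(1)-Tag as the oncogene. The reporter marks cells in which the internal promoter of Inpp5d is active, and the C3(1) promoter drives the SV40 T antigen in mammary epithelium. Tumours were dissociated with a mouse tumour dissociation kit, and cells were sorted into Lin-CD49f+GFP+ and Lin-CD49f+GFP- populations, called here GFP-positive and GFP-negative. Each population has 4 arrays, titled 566, 567, 573 and 631. GFP-negative cells are not normal tissue: they come from tumours with the same transgenes and from the same gate, without reporter signal. The labels give neither the age of the mice nor the lineage antibodies, and do not say whether each number is a separate animal or tumour, so p-values may measure only the spread between these samples.

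Notch receptors are membrane proteins that are cut when a Jagged or Delta-like ligand on a neighbouring cell pulls on them. The freed intracellular part enters the nucleus, joins RBPJ and Mastermind on DNA, and switches on genes such as Hes1 and Hey1, which encode repressors. In the mammary gland Notch signalling takes part in the luminal fate of epithelial cells, Notch4 and Dll4 are best known from endothelial cells, and Notch3 from pericytes and smooth muscle.

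The promoters of Notch4 and Dll4 are shown because their signals had the largest mean differences between the populations of the receptors and of the ligands. For Dll4 that mean includes signals not told from background, since 2 GFP-positive and 0 GFP-negative arrays had it well above background. Both are from RefSeq with build GRCm38.p6, run from 250 bases before the transcript start to 50 after it, and read 5′ to 3′ on the gene's own strand, which is the plus strand for both. Capitals mark the AP-1 motif TGACTCA.

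Notch4, chr17:34564045-34564344: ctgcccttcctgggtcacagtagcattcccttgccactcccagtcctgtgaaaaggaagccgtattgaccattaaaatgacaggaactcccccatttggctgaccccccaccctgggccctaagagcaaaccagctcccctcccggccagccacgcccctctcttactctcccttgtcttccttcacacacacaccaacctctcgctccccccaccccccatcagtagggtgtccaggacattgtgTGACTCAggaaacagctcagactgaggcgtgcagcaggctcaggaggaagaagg

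Dll4, chr2:119325534-119325833: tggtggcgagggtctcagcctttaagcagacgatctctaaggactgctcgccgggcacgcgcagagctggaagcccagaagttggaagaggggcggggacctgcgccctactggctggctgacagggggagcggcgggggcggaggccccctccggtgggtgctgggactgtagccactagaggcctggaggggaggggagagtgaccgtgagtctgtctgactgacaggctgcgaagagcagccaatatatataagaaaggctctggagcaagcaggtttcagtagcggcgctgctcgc

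The table held 9 promoters for 8 of the 10 genes; Dll1 had 2, and Hes1 and Hey1 are not in it. TGACTCA (or its reverse complement TGAGTCA) occurred in 1 of the 9, that of Notch4, with its first base 4 bases before the start, and in 5.2% of all 32851 promoters of the table. TGGGAA (or TTCCCA), the core of the RBPJ site, occurred in 0 of the 9 and in 25.6% of all. The motifs were chosen with these sequences in view, and a match describes letters in a window, not binding.

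A level is log2 of the array's processed Cy3 signal minus the 75th percentile of that array's gene spots, so 0 is that percentile and 1 is a 2-fold step. Levels of different genes come from different probes and are not set against each other. The share of gene spots well above background was 34.12% on GFP-positive 573 and 53.49% to 58.49% on the other 7; the former's lowest well-above-background signal was 142 intensity units against 13.39 to 23.45 elsewhere. Notch4, Jag2 and Dll4 were not well above background on that array. Notch4 and Jag2 therefore entered the test through the GFP-negative arrays alone, and the other 7 genes through both populations. Each population filled its own column of the slide, and the column's part cannot be told apart from that of the population. The epithelial genes Krt8, Krt18, Epcam and Krt14 and the sort marker gene Itga6 were well above background on all 8 arrays, and the pan-leukocyte gene Ptprc on none. Of 15 leukocyte markers, Cd3e, Itgam, Csf1r and Cd68 were well above background on all 8 arrays.

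Between GFP-positive and GFP-negative cells, 0 of the 9 Notch genes tested passed limma's test at an adjusted p of 0.05, as did 0% of all genes. The test leaves the differences between numbers in its error, and so do all SEs given for differences. With the number as a block the calls were also 0 among the 9 and 0% among all. At an unadjusted p under 0.05 there was 1 of 9, Notch4, against 0.794% of all genes, and with the number as a block again 1, against 5.49%. Without a block, the limma unadjusted p of Notch4 was 0.0715 with quantile normalization, 0.0653 with median scaling, 0.0654 with a common floor and 0.186 by its other, dimmer probe. It was at or above 0.05 in 7 of the 12 fits with an array or number left out. The mean difference, GFP-positive minus GFP-negative, was above 0 for 4 genes and below 0 for 5, with a median of -0.08 against -0.06 over all genes, of which 36.5% lay above 0 and 63.5% below. The populations' levels separated without overlap for 0 of the 9 genes and for 0.834% of all. In bulk samples like these, fewer cells of a type and less RNA per cell cannot be told apart.

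**Figure D1:**
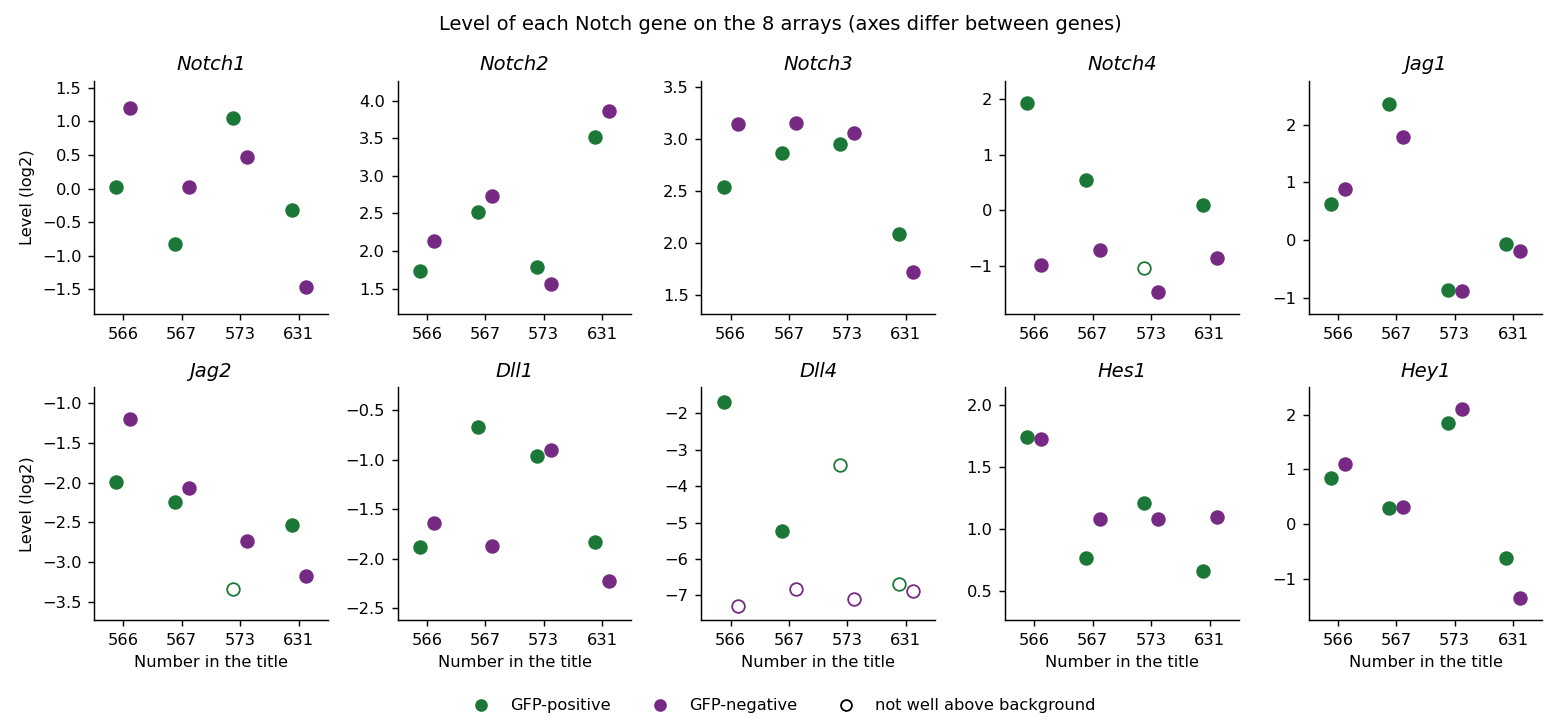
Level of each Notch gene on each of the 8 arrays. The x axis is the number in the title and the y axis the log2 level relative to the array's 75th percentile, on its own scale for each gene. Green points are GFP-positive and purple points GFP-negative arrays, and open points were not well above background. Notch4 is the gene whose green point lies above the purple one in all 4 numbers with most points filled, while for Jag1, Notch2 and Hey1 the points of a number lie close together and the numbers lie far apart.

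Notch1, the receptor best known for its part in luminal progenitors and T cells, had levels of 0.03, -0.83, 1.05 and -0.32 in GFP-positive cells of 566, 567, 573 and 631. In GFP-negative cells they were 1.20, 0.02, 0.48 and -1.46. The GFP-negative value was the larger in 566 and 567 and the smaller in 573 and 631, and the populations overlapped over most of their range. The mean difference was -0.08 (SE 0.59, limma unadjusted p = 0.900), and its 95% interval with the number as a block ran from -1.06 to 0.91. Single differences by number ran from -1.17 to 1.15, the widest disagreement in sign among the receptors.

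Notch2, a widely expressed receptor, had GFP-positive levels of 1.74, 2.53, 1.79 and 3.52 and GFP-negative levels of 2.14, 2.74, 1.56 and 3.86, in the same order of numbers. In both populations 631 was the highest and 567 the next. The population difference was -0.18 (SE 0.56; with the block, limma unadjusted p = 0.290 and 95% interval -0.57 to 0.20). Differences by number lay between -0.40 and 0.22, small beside the distance between numbers.

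Notch3 had GFP-positive levels of 2.54, 2.87, 2.95 and 2.09 and GFP-negative levels of 3.15, 3.16, 3.06 and 1.72. Both arrays of 631 lay below all others, and the 3 other numbers lay near each other. The population difference was -0.16 (SE 0.37, limma unadjusted p = 0.674; 95% interval with the block -0.62 to 0.30), with -0.61, -0.30 and -0.11 in 566, 567 and 573 and 0.37 in 631.

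Notch4 was read by 2 probes. The brighter, A_55_P2807493, gave GFP-positive levels of 1.93, 0.55, -1.04 and 0.10 and GFP-negative levels of -0.99, -0.71, -1.46 and -0.86, with GFP-positive 573 not well above background. GFP-positive 566 stood above the other arrays, the GFP-negative arrays were close together, and GFP-positive 573 lay among them. The means were 0.39 ± 1.23 (SD, n = 4) and -1.01 ± 0.33 (SD, n = 4). Their difference was 1.39 (SE 0.55), with a limma unadjusted p of 0.0328 and an adjusted p of 1.00. With the number as a block the p-values were 0.0114 and 0.884, and the 95% interval was 0.44 to 2.34.

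The differences of Notch4 by number were 2.92, 1.26, 0.43 and 0.96. It was the only one of the 9 with the same direction in all 4 numbers, as 14.2% of all genes had, but the direction in 573 rests on a GFP-positive signal not told from background. Without GFP-positive 573 the difference was 1.87, without number 573 it was 1.71, and without GFP-positive 566 or without number 566 it was 0.88. The other probe, A_55_P2740966, was well above background on GFP-positive 566 alone. There it was 1.201-fold over the lowest signal measured well above background on GFP-negative 566, called the floor of that array. Over all 4 numbers the bright mean did not exceed the floor of the dim arrays, so no fold is given.

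Endothelial markers were looked at beside Notch4. Of 17 such genes 8 were tested and 0 passed limma's adjusted test; 5 of the 8 entered through GFP-negative arrays alone. Their differences were above 0 for 7, with a median of 1.18 against -0.06 over all genes. The median was 1.27 without GFP-positive 573 and 1.54 without number 573. Only Vwf, Plvap and Mmrn2 were above 0 in all 4 numbers. The medians by number were 3.23, 0.85, -0.38 and 0.41. Esam, a junction gene, differed by 3.37 in 566 and by -0.07, -1.82 and -1.26 in the others, and Emcn by 6.76 and 2.09 in 566 and 567 and by -0.89 and -1.25 in 573 and 631. The summed level of the 17 was 5.95, 3.88, 3.46 and 2.76 in GFP-positive cells and 2.73, 3.96, 3.25 and 2.21 in GFP-negative cells. Only 566 showed a wide gap between the populations in this sum, and in 567 the GFP-negative value was the larger. On GFP-positive 566 and 567 all 17 were well above background, on GFP-positive 573 only 3, and on GFP-negative arrays 11 or 12. Of the defining markers, Cdh5 and Tek were well above background on 3 and 2 GFP-positive arrays and on 0 GFP-negative arrays, and Pecam1 on 3 arrays of each population. Of the others not tested, Kdr was so on 3 and Erg on 2 arrays of each population. Cldn5 and Robo4 were so on 3 GFP-positive and 2 GFP-negative arrays, Ptprb on 2 and 1, and Tie1 on 3 and 1. Mmrn2, which encodes an endothelial matrix protein, differed by 6.71, 3.75, 0.55 and 2.18, and Vwf, the gene of von Willebrand factor, by 4.53, 1.99, 0.76 and 0.82; neither was well above background on GFP-positive 573. The part of these markers in the difference of Notch4 was not tested.

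**Figure D2:**
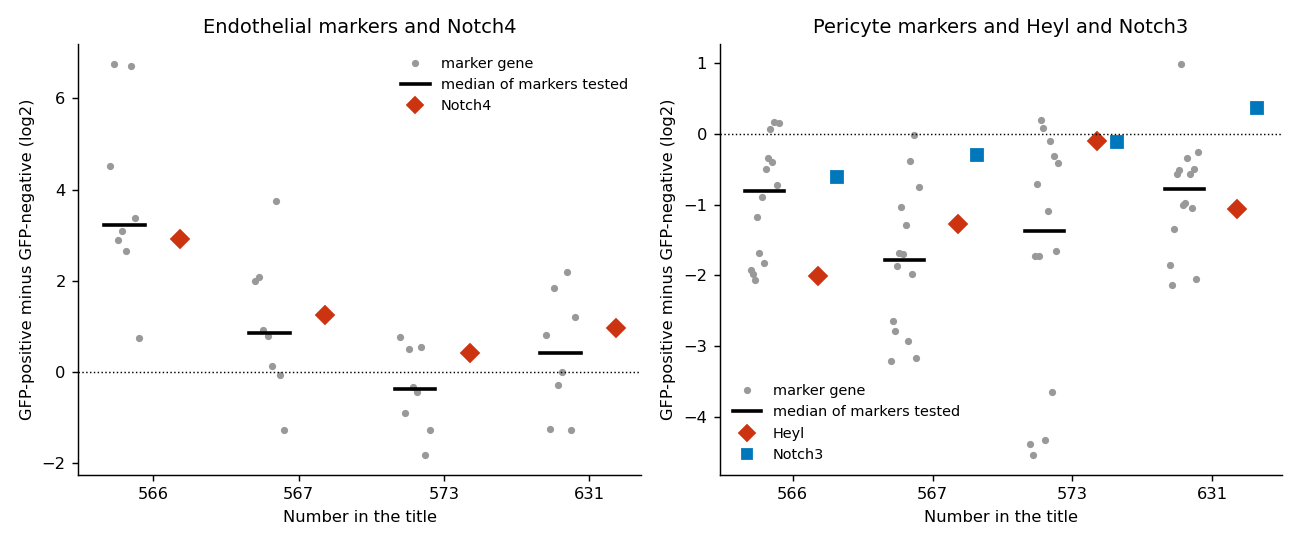
Differences (GFP-positive minus GFP-negative, log2, y axis) by number (x axis). Left, grey points are endothelial marker genes that were tested, the black line their median and the red diamond Notch4; right, the same for pericyte markers with Heyl (red) and Notch3 (blue). The endothelial medians are 3.23, 0.85, -0.38 and 0.41 in 566, 567, 573 and 631, and the differences of Notch4 2.92, 1.26, 0.43 and 0.96. On GFP-positive 573 only 3 of the 17 endothelial markers were well above background, and Notch4 was not. Of the 8 endothelial markers tested, 5 entered through GFP-negative arrays alone. The pericyte medians lie between -0.78 and -1.79, over genes of which 12 of 14 entered through GFP-negative arrays alone.

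Among the ligands, Dll4, which activates Notch receptors in sprouting vessels, was well above background on GFP-positive 566 and 567 and on 0 of the 4 GFP-negative arrays. Its levels were -1.69, -5.22, -3.42 and -6.70 in GFP-positive cells and -7.28, -6.83, -7.09 and -6.88 in GFP-negative cells. GFP-positive 566 was the brightest by a wide margin, and the -3.42 of GFP-positive 573 lies under that array's raised background. With GFP-negative 566 set at its floor, the lowest signal measured well above background on that array, Dll4 was 10.55-fold higher in GFP-positive 566. Such a floor is not a strict bound. On GFP-positive 573 Notch4 had 167.6 intensity units and was not well above background, though the floor of that array was 142. In 567 the floor exceeded the bright value, and in 573 and 631 neither array measured the gene, so no fold is given there or over the 4 numbers. Dll4 was not tested, and its fold over the floor rests on 1 pair of arrays.

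Dll1, another Delta-like ligand, had GFP-positive levels of -1.88, -0.67, -0.96 and -1.84 and GFP-negative levels of -1.64, -1.87, -0.90 and -2.22. Only 567 showed a wide gap between the populations. The difference was 0.32 (SE 0.38, limma unadjusted p = 0.416; 95% interval with the block -0.29 to 0.94), with 1.20 in 567 and between -0.23 and 0.39 in the others.

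Jag1, a ligand of epithelial, stromal and vascular cells, had GFP-positive levels of 0.63, 2.36, -0.87 and -0.07 and GFP-negative levels of 0.88, 1.78, -0.88 and -0.19. Both arrays of 567 were the highest and both of 573 the lowest. The populations differed by 0.11 (SE 0.76, limma unadjusted p = 0.886; 95% interval with the block -0.31 to 0.53), and in 573 by 0.01. Jag2 had GFP-positive levels of -1.99, -2.25, -3.33 and -2.54, the third not well above background, and GFP-negative levels of -1.20, -2.07, -2.73 and -3.17. It differed by -0.23 (SE 0.46, limma unadjusted p = 0.623; 95% interval with the block -0.84 to 0.38), and by 0.04 without GFP-positive 573. So neither Jagged gene showed a population difference beyond its spread.

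Of the target genes, Hes1 had GFP-positive levels of 1.74, 0.77, 1.21 and 0.67 and GFP-negative levels of 1.72, 1.08, 1.08 and 1.10. Both arrays of 566 were the highest, and the populations overlapped. Its difference was -0.15 (SE 0.29, limma unadjusted p = 0.617; 95% interval with the block -0.53 to 0.23). Hey1 had GFP-positive levels of 0.83, 0.30, 1.84 and -0.62 and GFP-negative levels of 1.11, 0.32, 2.10 and -1.36. The populations differed by 0.05 (SE 0.76, limma unadjusted p = 0.949; 95% interval with the block -0.45 to 0.55), with 0.74 in 631 and between -0.27 and -0.01 in the others; with each array scaled to its median the mean difference was -0.004. Of the 9 intervals with the block, those of Notch1 and Notch4 reached a 2-fold difference and the other 7 did not.

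**Figure D3:**
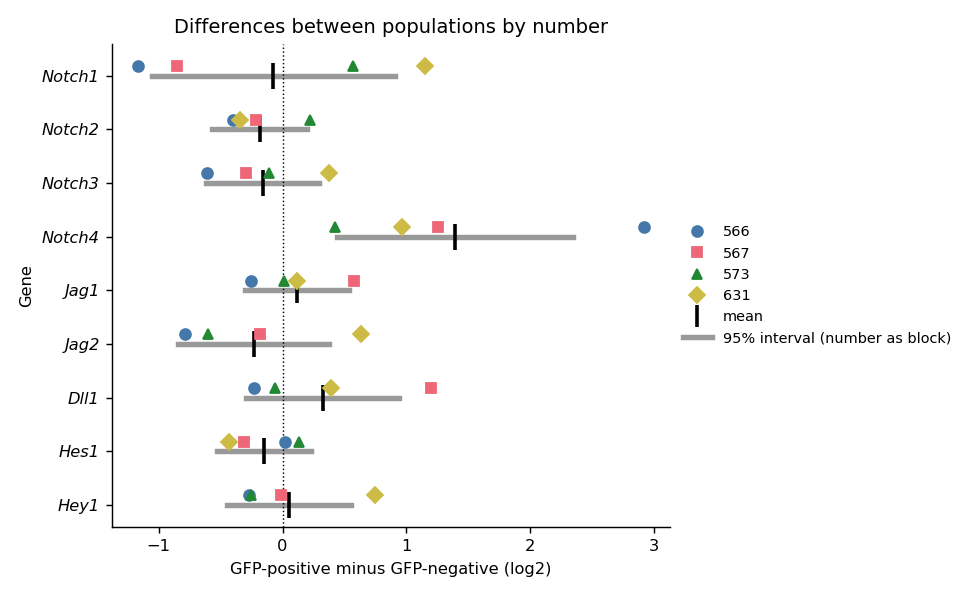
Difference between the populations (GFP-positive minus GFP-negative, log2, x axis) for the 9 genes tested (y axis). Coloured points are the 4 numbers, the black bar is their mean and the grey line the 95% interval with the number as a block. The grey line of Notch4 runs from 0.44 to 2.34 and does not touch 0; the other 8 all cross 0, and the points of Notch1 spread from -1.17 to 1.15.

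Levels across numbers were then compared, with population in the model. This F test asks whether the numbers differ by more than their 2 arrays, 1 of each population, disagree about it. Notch2, Jag1 and Hey1 passed at an adjusted p of 0.05, 3 of 9 or 33.3%, against 28.8% of all genes. The share of the sum of squares that lay between numbers had a median of 84.8% over the 9 genes, against 76.8% over all genes. The spread from the lowest to the highest number mean had a median of 1.65 over the 9 genes and 0.82 over all. With no filter on dim probes the call was lost for all 3 (limma adjusted p from 0.183 to 0.189), and with a common floor it was lost for Hey1 (0.0543).

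Notch2 averaged 3.69 in 631, 2.63 in 567, 1.94 in 566 and 1.68 in 573, a spread of 2.01 or 4.03-fold (limma F test, adjusted p = 0.00933). Number 631 exceeded 566 (limma adjusted p = 0.00964; 19.4% of all genes passed that contrast) and 573 (0.00383; 28.7%), and 567 exceeded 573 (0.0340; 18.9%). The neighbours in this order, 631 and 567 (limma adjusted p = 0.0605), 567 and 566 (0.107) and 566 and 573 (0.527), did not pass. Without 631 the spread was 0.96 and the call was lost (limma adjusted p = 0.0710).

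Jag1 averaged 2.07 in 567, 0.76 in 566, -0.13 in 631 and -0.88 in 573, a spread of 2.94 or 7.70-fold (limma F test, adjusted p = 0.00682). Number 567 exceeded 566 (limma adjusted p = 0.0334; 8.73% of all genes passed), 631 (0.0172; 3.19%) and 573 (0.00581), and 566 exceeded 573 (0.0411; 1.73%). The neighbours 566 and 631 (limma adjusted p = 0.0517) and 631 and 573 (0.0647) did not pass. Thus 567 was set apart from each other number by the test, and among the lower places only 566 from 573. Without 567 the spread was 1.64 (limma adjusted p = 0.0297).

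Hey1 averaged 1.97 in 573, 0.97 in 566, 0.31 in 567 and -0.99 in 631, a spread of 2.96 or 7.76-fold (limma F test, adjusted p = 0.00842). Number 631 lay below 573 (limma adjusted p = 0.00320) and 566 (0.0130), and 567 lay below 573 (0.0167). No neighbours in this order passed, with limma adjusted p-values of 0.131, 0.203 and 0.0691. Without 631 the spread was 1.66 (limma adjusted p = 0.0188) and without 573 it was 1.96 (0.0191). Notch2 and Hey1 thus had their extreme in the same number with opposite sign, 631 being the highest for Notch2 and the lowest for Hey1.

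The other 6 genes did not pass the F test across numbers, with spreads of 1.65 for Notch1, 1.11 for Notch3, 1.72 for Notch4, 1.43 for Jag2, 1.10 for Dll1 and 0.85 for Hes1. Their limma adjusted p-values ran from 0.0514 for Notch3 to 0.163 for Notch4. In single contrasts between numbers, Notch3 was lower in 631 than in 573 (difference -1.11, limma adjusted p = 0.0278) and Hes1 lower in 631 than in 566 (difference -0.85, limma adjusted p = 0.0441). Number and population held unequal parts of each gene: 97.9% and 0.260% of the sum of squares for Jag1, 96.4% and 0.0528% for Hey1, but 35.7% and 44.4% for Notch4. Dll1 had the next largest population share, 9.13%.

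**Figure D4:**
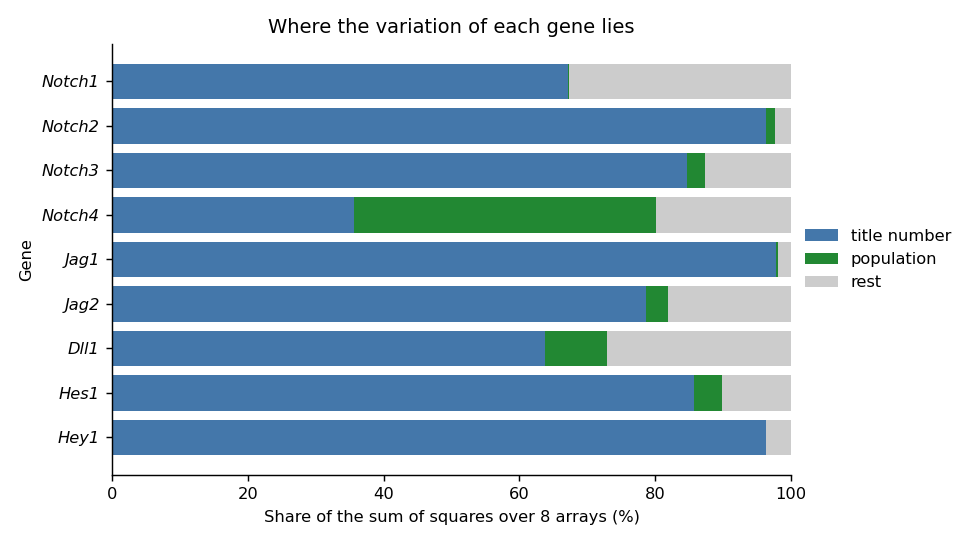
Share of each gene's sum of squares over the 8 arrays (x axis, percent) that lies between numbers (blue), between populations (green) and in the rest (grey), for the 9 genes tested (y axis). The number has 3 degrees of freedom, the population 1 and the rest 3, so the shares are not on an equal footing. The green part is 44.4% for Notch4 and at most 9.13% for the other 8.

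The rest of the pathway was followed in 71 genes on 8 lists: other ligands, glycosyltransferases that modify the receptors, ligand endocytosis, receptor cleavage, the nuclear complex, corepressors, inhibitors and turnover, and other targets. Of these, 60 were tested. By population 0 rose and 0 fell at limma's adjusted p of 0.05, with 24 differences above 0, 36 below and a median of -0.04 against -0.06 over all genes. Across numbers 18 of 60 passed, 30%, near the 28.8% of all genes. Dlk2, Lfng, Xxylt1, Psen2, Aph1c, Hdac2, Numb, Itch, Dtx3 and Nrarp were well above background on 3 GFP-positive and 4 GFP-negative arrays. These genes entered the test through the GFP-negative arrays alone, as did Dlk1 and Heyl.

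Among other ligands, 2 of 4 genes were tested. Dlk1, a ligand-like protein that lacks the usual receptor-binding domain, had the smallest p of the pathway. Its levels were -1.55, -3.10, -3.45 and -2.21 in GFP-positive cells and 0.22, -0.51, -0.89 and -0.61 in GFP-negative cells. The populations did not overlap, though GFP-positive 573 was not well above background, so that Dlk1 entered the test through the GFP-negative arrays alone, where its levels were the larger. The difference was -2.13 (SE 0.44, limma unadjusted p = 0.00095, adjusted p = 1.00), with -1.77, -2.59, -2.56 and -1.60 by number, and without GFP-positive 573 it was -1.84. With the number as a block, limma gave Dlk1 an unadjusted p of 5.1e-05 and an adjusted p of 0.459. With the block as a random effect the limma adjusted p was 0.0532. Both adjusted values were the smallest of all genes in their fit, and neither passed. With values under a common floor raised to it, the difference of Dlk1 was -0.83. Dlk2 differed by 0.02 (SE 0.19). Dll3 was well above background on 2 GFP-positive arrays and 1 GFP-negative array and was not tested.

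All 6 glycosyltransferase genes tested had a difference of 0 or below, the furthest from 0 being -0.28 (SE 0.33) for Pofut1, which adds the fucose that Fringe enzymes extend. The Fringe genes Lfng and Rfng differed by -0.10 and -0.13, the xylosyltransferase genes Gxylt1 and Xxylt1 by -0.01 and -0.13, and Mfng was not tested. Of the 6 ligand endocytosis genes, Mib1, the ubiquitin ligase that starts ligand pulling, differed by 0.06 (SE 0.38), Mib2 by -0.19 and Neurl1b by 0.44 (SE 0.65), the last with 2.44 in 631. Receptor cleavage genes lay close to 0: the sheddase genes Adam10 and Adam17 differed by -0.06 and -0.02, and the gamma-secretase genes Psen2, Ncstn, Aph1c and Psenen by 0.22, -0.05, -0.26 and -0.07.

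In the nuclear complex, Rbpj, the DNA-binding protein of the pathway, differed by -0.04 (SE 0.46), and the Mastermind genes Maml1, Maml2 and Maml3 by 0.09, 0.35 and 0.22. Kat2a, a histone acetyltransferase, differed by -0.39 (SE 0.21, limma unadjusted p = 0.107). With the number as a block its limma unadjusted p was 0.0431, and 5.49% of all genes were under 0.05 in that fit. The corepressor genes Spen, Tle4 and Hdac2 differed by 0.04, 0.60 (SE 0.72) and -0.13. Among inhibitors and turnover genes, Numb and Numbl, which antagonise Notch, differed by -0.05 and -0.37, Fbxw7 and Itch, ubiquitin ligases, by 0.14 and -0.18, and Dtx3 by -0.36 (SE 0.25); Dtx1 was not tested.

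Heyl, a target gene of the Hey family known from pericytes, had the next smallest p after Dlk1. Its levels were -3.71, -2.32, -3.44 and -3.41 in GFP-positive cells, that of 573 not well above background, and -1.70, -1.04, -3.34 and -2.35 in GFP-negative cells. The GFP-positive value was the smaller in each number, and the populations overlapped. Heyl also entered the test through the GFP-negative arrays alone. The difference was -1.11 (SE 0.50, limma unadjusted p = 0.0561, adjusted p = 1.00), with -2.01, -1.27, -0.10 and -1.06 by number, and with the number as a block the limma unadjusted p was 0.00927. Without GFP-positive 573 the difference was -1.04 (limma unadjusted p = 0.107), and without number 573 in both populations it was -1.45 (limma unadjusted p = 0.0193). With a common floor it was -0.06, since most of its levels lie under that floor. Other targets differed by 0.10 (Hes6), -0.06 (Hes7), -0.28 (Nrarp, a feedback inhibitor), -0.24 (Myc) and -0.08 (Ccnd1). Nrarp was not well above background on GFP-positive 573. Its difference was 0.03 without that array and -0.02 without number 573. Hes5 and Hey2 were not tested, and Hey2 was well above background on 0 arrays.

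Pericyte markers were looked at beside Heyl and Notch3. All 14 were tested and 0 passed limma's adjusted test. Of these, 12 were well above background on 1 to 3 GFP-positive arrays and entered through the GFP-negative arrays alone, so that a count of their directions is no support. Cox4i2 and Mcam, measured on all 8 arrays, differed by -0.24 (SE 0.25) and -0.17 (SE 0.23). The summed level of the 14 ran from 4.88 to 5.89 in GFP-positive cells, with 2 to 13 well above background, and from 5.65 to 6.55 in GFP-negative cells, with all 14. Rgs5 and Higd1b, genes typical of pericytes, were not well above background on GFP-positive 573 and differed by -2.33 (SE 0.45) and -2.26 (SE 0.35) without number 573, against -2.85 and -2.83 with it. Notch3 differed by -0.16. The part of these markers in the difference of Heyl was not tested.

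Several pathway genes passed the test across numbers. Rbpj averaged 3.66 in 631, 2.93 in 567, 2.27 in 573 and 2.01 in 566 (limma F test, adjusted p = 0.0134), and Ccnd1, the cyclin D1 gene, 3.33 in 631, 2.99 in 567, 1.55 in 566 and 0.64 in 573 (limma F test, adjusted p = 0.00909). Both had 631 first and 567 next, as Notch2 did. Nrarp averaged -1.32 in 567, -2.02 in 566, -2.91 in 573 and -3.28 in 631 (limma F test, adjusted p = 0.0201). Its mean in 573 includes the GFP-positive array, where Nrarp was not well above background. Mib1, Pofut1, Ncstn, Maml2, Tle4, Numbl and Myc were among the others that passed, with limma adjusted p-values from 0.0148 for Numbl to 0.0345 for Ncstn and Maml2.

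Genes with the most similar pattern over the 8 arrays were sought for the 6 members whose levels spanned at least 2 on the log2 scale, by the root-mean-square difference of centred levels among 12614 genes. For Notch2 they were Fhod1 at 0.098, Abcd4 at 0.100 and Arid5b at 0.125, against an SD of Notch2 itself of 0.85. For Jag1 they were Adamts4 at 0.307, Bmp1 at 0.314 and Gpr25 at 0.329, and for Hey1 Trim14 at 0.240, Chst10 at 0.245 and Batf3 at 0.262. For Notch1 they were Treml2 at 0.171, Mark1 and Trpm1, and for Jag2 Slc2a6 at 0.186, Oasl1 and Lifr. Notch4 had no gene as near: its closest were Gask1b at 0.403, Clec3b at 0.425 and Ackr1 at 0.514, against an SD of 1.12.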

How the data were processed

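Total RNA of the 8 sorted samples was labelled with Cy3 and hybridised to 1-colour Agilent arrays, 1 slide and 1 scan. The deposited values are linear spot intensity from Agilent Feature Extraction 10.7.3.1, background-subtracted and detrended per the file headers and not normalized between arrays; the deposited series table held the same intensity in all 62976 spots of each array. Control and flagged spots were dropped and replicate spots averaged, which kept 56555 of 56605 gene probes. The files name transcripts, not genes, so accessions were matched without versions to RefSeq (GRCm38.p6), giving 32969 probes a symbol; the rest kept the name in the files. The filter kept probes that all 4 arrays of at least 1 population measured well above background (26316), and the brightest per gene was used. Differences were tested with limma 3.58.1 in R 4.3.3, Benjamini-Hochberg adjusted over 20265 genes, and numbers with an F test; fits were tested on simulated data. Each probe of the 10 genes had 1 spot per array, and the number of arrays limits the precision.

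The numbers in the titles were taken as pairs in the differences by number and in the fits with a block. After removal of the population means, the 2 arrays of a number correlated at 0.573 to 0.741 across genes. Arrays of unlike number correlated at 0.221 or less. The main population test and the SEs given leave this pairing out. Named genes were the 10 members, pathway genes picked for their role, up to 2 more per pathway list and up to 4 per marker list with the smallest p, and the 3 genes nearest in pattern. Further markers were named outside this rule, among them Esam, Cdh5, Tek, Pecam1, Cox4i2, Mcam, Krt8, Krt18, Epcam and Ptprc. Members and lists were chosen with earlier results of these data known. Alternatives were other scalings, a normexp background correction (on the median signal, since the files held no mean signal), other filters and probe rules, a common floor, the number as a block, other variance models, and each array or number left out; Notch4 by its other probe, the block within 566, 567 and 631, and marker lists without 573 were added after the data were seen.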

Additional observations from a re-analysis of the deposited data

Results flagged for a closer look

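Among 18 sets of 4 arrays (9 genes in 2 populations), 2 held an array far from the other 3; chance gives about 1 in 20. Notch3 in GFP-negative 631 had a level of 1.72, and the nearest of the other GFP-negative arrays had 3.06 (ratio of the gap to the range 0.93). The GFP-positive array of 631 was also the lowest of its population, at 2.09. Hes1 in GFP-negative 566 had a level of 1.72 against 1.10 for the nearest of the others (ratio 0.966), and GFP-positive 566 was the highest of its population, at 1.74.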

How the results depend on the processing

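Population calls stayed at 0, of all genes and of the 9 Notch genes, under all alternatives run, the replicate block included; with that block 1113 genes had an unadjusted p under 0.05, against 161 without it. The difference of Notch4 kept its direction throughout, from 0.88 to 1.87. Hey1 turned to -0.004 with median scaling. With arrays left out in turn, differences that changed sign ran from -0.58 to 0.30 (Notch1), -0.56 to 0.25 (Notch2), -0.51 to 0.014 (Notch3), -0.50 to 0.57 (Jag1), -0.53 to 0.13 (Jag2), -0.36 to 0.0093 (Hes1) and -0.58 to 0.57 (Hey1). With numbers left out, Notch1 ran from -0.48 to 0.29, Jag1 from -0.042 to 0.24 and Hey1 from -0.18 to 0.16. Genes called across numbers, 5834, became 2465 with quantile normalization, 1501 with a common floor and 0 with no filter on dim probes, where 0 Notch genes were called too (limma adjusted p from 0.183 to 0.189 for Notch2, Jag1 and Hey1), and 1649 to 5186 with arrays and 2797 to 4521 with numbers left out (3575 without 631); both arrays of 567, both of 566 and GFP-negative 631 each lowered it by over 1.5 times. Notch genes called across numbers, 3, became 5 with median scaling, normexp or no population term, 6 with a trended robust variance and 3 to 5 with arrays left out. Hey1 missed the threshold with a common floor (0.0543). Median scaling put 26.2% of all differences above 0 (median -0.11), and a percentile over probes well above background on all arrays 52.7% (median 0.01), against 36.5%. The cause of these changes was not tested. Signal over background limits Dll4, and Notch4, Jag2, Heyl, Dlk1 and Nrarp on GFP-positive 573. It also limits the other pathway genes that entered the test through the GFP-negative arrays alone.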

Other observations

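The mean differences of luminal epithelial genes were above 0 for 15 of 15 tested, against 36.5% of all genes. Their median was 1.12, and 0 passed limma's adjusted test. Only Muc1, Cldn3 and Elf5 were above 0 in all 4 numbers. Their medians by number were 0.30, 0.79, -0.15 and 3.61 in 566, 567, 573 and 631. Basal genes had 10 of 13 differences above 0, with a median of 0.33 (0.63 without GFP-positive 573 and 0.49 without number 573). Number 631 had the widest luminal difference by the median over genes, but not by their summed level. That sum was 8.50 in GFP-positive and 8.42 in GFP-negative cells of 631, against 9.18 and 8.64 in 567. In 631 Krt8 and Krt18 differed by -0.29 and -0.11, and the other luminal genes tested were above 0. Notch2 was highest and Hey1 and Notch3 lowest in 631 in both populations.

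Fibroblast markers had 7 of 10 differences above 0 and a median of 0.70, with 1.95 in 566 and 1.49 in 631. Clec3b, one of that list, was among the genes nearest to Notch4 in pattern. Leukocyte markers had 1 of 7 above 0, against 36.5% of all genes, and a median of -0.35. Of these 7, 3 entered the test through GFP-negative arrays alone, as did 4 of the 10 fibroblast markers. A count of directions in these lists is therefore no support. Cd3e, Itgam, Csf1r and Cd68, measured on all 8 arrays, differed by -0.19, 0.07, -0.35 and -0.23. Without GFP-positive 573 the fibroblast median was 1.41, and without number 573 in both populations it was 0.97.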
